A study of Mus musculus with 12 samples.

Results

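The genes described here encode proteins that set how long inflammatory mRNAs last: the tristetraprolin family (Zfp36, Zfp36l1, Zfp36l2), the Regnases (Zc3h12a, Zc3h12c), the Roquins (Rc3h1, Rc3h2) and the AU-rich element binding protein HuR (Elavl1). They were taken by name from a deposited table of 48709 genes, of which they are 8. All 8 passed the filter on low counts, together with 12455 of the 19195 genes that had any count. RNA was sequenced from peritoneal macrophages of the mouse, the phagocytes that live in the abdominal cavity. The 12 libraries form 4 groups of 3: cells with a myeloid knockout of Usp5 (MKO) at 3 h of lipopolysaccharide (LPS), wild-type cells (WT) at 3 h, MKO cells at 0 h and WT cells at 0 h. Usp5 encodes a deubiquitinase that disassembles unanchored polyubiquitin chains, and LPS is a constituent of the outer membrane of Gram-negative bacteria that macrophages detect through Toll-like receptor 4. The labels do not name the knockout allele or the Cre driver. They give LPS as the treatment of all samples, 0 h included, while the design text speaks of mock cells. Whether the replicates are separate animals is not said either, and the p-values then cover no more than the variation among these libraries, which may be technical.

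Tristetraprolin and its relatives bind AU-rich elements in 3' untranslated regions through a pair of CCCH zinc fingers and recruit the CCR4-NOT complex, which shortens the poly(A) tail. Regnase-1, the product of Zc3h12a, is an endoribonuclease that cuts translated mRNAs at stem-loops, and the Roquins bind stem-loops of the same kind and recruit the deadenylase. HuR binds AU-rich elements as well and usually protects its mRNAs. In macrophages tristetraprolin limits Tnf, the tumour necrosis factor mRNA, and Regnase-1 limits Il6 and Il12b. Both are themselves made after LPS and act on their own mRNAs.

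The sequences below are matches, in the regulators' own mRNAs, to the elements that these proteins are known to read. They come from the transcripts of the GENCODE M21 annotation (GRCm38, the mm10 build named in the submitters' processing notes), in the sense of the transcript, with the element in capitals between 10 bases (nonamers) or 7 bases (stem-loops) on each side. The letters TTATTTATT, the AU-rich nonamer, occurred in the 3' untranslated region of 7.12% of 20738 protein-coding genes. They occurred 1 time each in Zfp36, Zfp36l1, Zfp36l2, Rc3h1 and Rc3h2 and 8 times in Elavl1, some of them overlapping. Tnf, shown as a known target, had 5 overlapping matches.
Zfp36, chr7:28376951-28376979, minus strand: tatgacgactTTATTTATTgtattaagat
Zfp36l1, chr12:80108167-80108195, minus strand: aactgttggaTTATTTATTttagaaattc
Zfp36l2, chr17:84184914-84184942, minus strand: actatttaacTTATTTATTatcttgtgaa
Elavl1, chr8:4285776-4285804, minus strand: atttatttatTTATTTATTtttatttatt
Tnf, chr17:35199671-35199699, minus strand: tatttatttaTTATTTATTtatttgctta

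Stem-loops were searched as a stem of 5 perfect Watson-Crick pairs around a loop of 3 bases, pyrimidine then purine then pyrimidine. Such a hairpin was found in the 3' untranslated region of 19.8% of the same genes. Zc3h12a held 3, Zc3h12c 1, Rc3h1 4, Rc3h2 2 and Tnf 2, and the tristetraprolin family and Elavl1 held 0. The whole hairpin is in capitals. The Rc3h1 and Rc3h2 hairpins shown share all 13 bases, and the Tnf hairpin has the same loop.
Zc3h12a, chr4:125118881-125118907, minus strand: ctagttaGGCACCATGTGCCtgctctc
Zc3h12a, chr4:125119063-125119089, minus strand: cctgttgATACACATTGTATctctgtc
Zc3h12c, chr9:52113463-52113489, minus strand: aataatcTGAACCATGTTCAgcaaact
Rc3h1, chr1:160971654-160971680, plus strand: gccaataACTTCTGTGAAGTtgccttt
Rc3h2, chr2:37373803-37373829, minus strand: ttaattaACTTCTGTGAAGTtgtttac
Tnf, chr17:35199579-35199605, minus strand: agacatgTTTTCTGTGAAAAcggagct

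The 3' untranslated regions searched differ in length, from 774 bases in Zfp36 to 7181 in Rc3h1 (median of all genes 847 bases), and a longer one holds more matches of any kind. A match is a string of letters and not a measured binding site.

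Some facts of the whole data set bear on every value. Total counts ran from 14762709 to 20778862 per library. Usp5, the targeted gene, was at 27.9, 28.0 and 26.9 CPM in MKO 3 h libraries, 107, 106 and 111 CPM in WT 3 h libraries, 28.7, 29.0 and 31.4 CPM in MKO 0 h libraries and 100.5, 112 and 121 CPM in WT 0 h libraries (CPM are counts scaled to library size with TMM factors). It was thus lower in all 6 MKO libraries, at 25.5% of the WT level at 3 h and 26.7% at 0 h. Of 9 macrophage markers 8 were used. Their summed level was 6852 to 7098 CPM in MKO 3 h and 9914 to 10232 in WT 3 h, and 6171 to 6659 in MKO 0 h and 8477 to 9109 in WT 0 h. These markers did not move alike. At 3 h the genotypes overlapped for Csf1r (1483.5 to 1572 CPM in MKO, 1539 to 1576 in WT). The rest were lower in MKO at 3 h, with Adgre1 at 1963 to 2036 CPM in MKO and 2978 to 3058 in WT. At 0 h Cd14 was higher in MKO (359 to 420 CPM against 283 to 314 in WT), Spi1 overlapped and the rest were lower. Of 6 markers of large peritoneal macrophages, Cxcl13, Gata6, Timd4 and Vsig4 were at or near 0, under 0.1 CPM in all 12 libraries. Over the same libraries Icam2 was at 12.04 to 17.74 CPM and Garnl3 at 0.336 to 2.03 CPM. The 5 markers of small peritoneal macrophages or monocytes summed to 272 to 332 CPM, with Ccr2 at 145 to 223 CPM. Which of these macrophage types the cells were was not tested. The macrophage marker Lyz2 reached at most 43.9 CPM. T cell markers summed to at most 10.9 CPM, B cell markers to 13.8 and NK cell markers to 0.498 in any library, and neutrophil markers to 117 to 173 CPM in MKO 3 h, 128 to 164 in WT 3 h, 123 to 184 in MKO 0 h and 95 to 156 in WT 0 h. The part of the lower macrophage marker sum in the results was not tested.

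A pair of 0 h libraries stood apart, replicate 3 of MKO 0 h and replicate 3 of WT 0 h. Chi-square per degree of freedom over all genes was 20.9 and 27.9 between MKO 0 h replicate 3 and its group mates, and 15.6 and 18.4 for WT 0 h replicate 3. For replicates 1 and 2 it was 1.93 to 2.68 in the 4 groups, and for the remaining pairs at most 4.32. Malat1, a nuclear RNA, was at 201, 121 and 26.3 CPM in MKO 0 h and at 31.7, 29.9 and 164 in WT 0 h. Among the regulators, replicate 3 was the lowest of the 3 MKO 0 h libraries for 7 of the 8 genes and the highest of the 3 WT 0 h libraries for 7 of the 8. The same count was not made over all genes, so whether it is particular to the regulators was not tested. For Zc3h12a in MKO 0 h the gap was slight, with 33.44 CPM in replicate 3 and 33.53 in replicate 1. Zfp36 was the exception in both groups. Values without this pair are given beside the regulators' calls that it changed and beside part of the list counts.

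**Figure D1:**
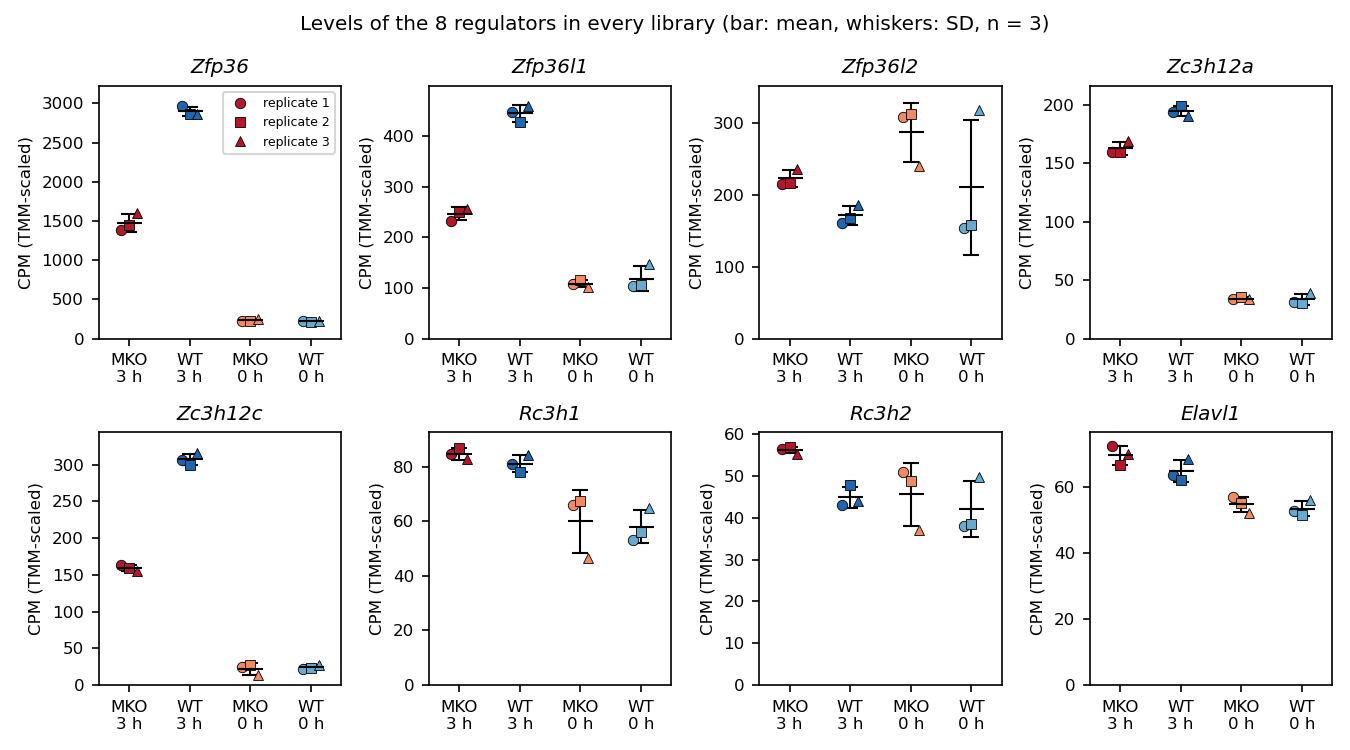
Levels of the 8 regulators in every library, as CPM on linear axes from 0, with the groups MKO 3 h, WT 3 h, MKO 0 h and WT 0 h from left to right. Circles, squares and triangles are replicates 1, 2 and 3, and bars with whiskers are means and SD (n = 3). Zfp36 lies at 1383 to 1605 CPM in MKO 3 h and at 2866 to 2961.5 in WT 3 h, and replicate 3 of both 0 h groups lies away from replicates 1 and 2 for most of the other genes.

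LPS raised 6 of the 8 regulators in MKO cells and the same number in WT cells, and lowered none at the threshold used (an adjusted p under 0.05 in edgeR's quasi-likelihood test, adjusted over all 12455 genes, with no fold minimum). In MKO cells 15.8% of all genes tested were called, with 9.75% higher and 6.08% lower, and in WT cells 32.5%, with 17.8% higher and 14.6% lower. The median log2 fold change of the 8 genes was 0.85 in MKO cells and 1.19 in WT cells, while that of all genes was -0.01 and -0.0035. At 3 h, 5 of the 8 differed between genotypes, 4 lower and 1 higher in MKO, where 42.8% of all genes were called (23% lower, 19.8% higher). With scaling by library size alone 7 of the 8 were called at 3 h, where 53.2% of all genes were called (5424 higher, 1199 lower). Of the 7, 3 were lower (Zfp36, Zfp36l1 and Zc3h12c) and 4 higher (Zfp36l2, Rc3h1, Rc3h2 and Elavl1), and the median of all genes moved by 0.25. With LPS in WT cells 4 of the 8 were called under that scaling, beside 51.5% of all genes. At 0 h none of the 8 was called in edgeR or in DESeq2, 1 had an unadjusted p under 0.05, and 32.9% of all genes were called. The LPS response itself differed between genotypes for 2 of the 8, both with a smaller rise in MKO cells, where 6.8% of all genes were called, 4.41% in this direction and 2.39% in the other. Groups did not overlap for all 8 genes with LPS in MKO cells (34.3% of all genes), for 6 with LPS in WT cells (45.6%), for 6 between genotypes at 3 h (61.2%) and for 0 at 0 h (39.4%). Comparisons that share libraries are not independent of each other, and each is given by its own values. In bulk RNA fewer cells of a type and less RNA per cell cannot be told apart.

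Tristetraprolin's own gene, Zfp36, had the highest level per transcript length of the 8 regulators at 3 h. Zfp36 lies on chromosome 7, minus strand, 28376784 to 28380253 (mm10), with 2 exons. Its level was 1383, 1449.6 and 1605 CPM in MKO 3 h and 2961.5, 2866 and 2868 CPM in WT 3 h. At 0 h it was 224, 229 and 244 CPM in MKO and 227, 215 and 221 CPM in WT. The order of the group means was WT 3 h, MKO 3 h, MKO 0 h and WT 0 h, and only the 0 h groups overlapped. LPS raised Zfp36 by 2.67 on the log2 scale in MKO cells (SE 0.061, edgeR adjusted p = 1.2e-13, a 6.37-fold rise) and by 3.71 in WT cells (SE 0.063, adjusted p = 3.2e-15, 13.1-fold).

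The rise of Zfp36 was thus smaller in MKO cells. The interaction, the LPS change in MKO minus that in WT, was -1.04 (95% interval -1.21 to -0.87, edgeR adjusted p = 1.5e-06), which is 0.486 of the WT fold rise. At 3 h Zfp36 was lower in MKO by a log2 difference of -0.97 (SE 0.057, adjusted p = 1.4e-08), and all 3 MKO libraries were under all 3 WT libraries. At 0 h the difference was 0.07 (95% interval -0.05 to 0.19, adjusted p = 0.38). Zfp36 was called higher in MKO at 0 h with library size alone (0.19, adjusted p = 0.013), and in deposited TPM the 0 h groups did not overlap. Without the 0 h pair that stands apart, the interaction was -1.0 and the 3 h difference -0.96.

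Zfp36l1, the family member known as BRF1 or TIS11b, followed Zfp36 at a lower level. It lies on chromosome 12, minus strand, 80107760 to 80113013. Its level was 232, 251 and 256 CPM in MKO 3 h against 448, 427 and 459.5 CPM in WT 3 h, and 108, 115 and 101 CPM in MKO 0 h against 103, 105 and 147 CPM in WT 0 h. Groups at 3 h did not overlap, and those at 0 h did. LPS raised it by 1.19 in MKO cells (SE 0.11, edgeR adjusted p = 1.5e-06) and by 1.91 in WT cells (SE 0.11, adjusted p = 3.5e-09). The interaction was -0.71 (95% interval -1.04 to -0.39, adjusted p = 0.0096), and the difference at 3 h -0.85 (SE 0.11, adjusted p = 2.2e-05). With replicates 1 and 2 added up to a single library per group the interaction of Zfp36l1 was no longer called (-0.61, adjusted p = 0.22), and without the 0 h pair it was -0.94.

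Zfp36l2, known as BRF2 or TIS11d, did not rise with LPS. It lies on chromosome 17, minus strand, 84183931 to 84187947. Its level was 215, 217 and 236 CPM in MKO 3 h and 160.2, 167 and 186 CPM in WT 3 h, so that the 3 h groups did not overlap. At 0 h it was 308, 312 and 240.1 CPM in MKO and 154, 158 and 318 CPM in WT. Replicates 1 and 2 of MKO 0 h lay far above replicates 1 and 2 of WT 0 h, and replicate 3 was lower than its MKO mates and higher than its WT mates.

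None of the Zfp36l2 comparisons was called in the fit described above. The log2 change with LPS was -0.36 in MKO cells (95% interval -0.81 to 0.08, edgeR adjusted p = 0.27) and -0.30 in WT cells (95% interval -0.74 to 0.15, adjusted p = 0.32). The MKO minus WT difference was 0.38 at 3 h (SE 0.21, adjusted p = 0.16) and 0.45 at 0 h (SE 0.21, adjusted p = 0.12). Other fits called Zfp36l2 higher in MKO with every library of the comparison kept. At 3 h these included library size alone (0.63, edgeR adjusted p = 0.029), no filter on low counts (0.41, adjusted p = 0.027) and only the 3 h groups (0.41, adjusted p = 1.7e-06). Leaving out WT 0 h replicate 3 alone, a library outside both comparisons, the 3 h difference (0.38, edgeR adjusted p = 0.0032) was called. So was the LPS change in MKO cells (-0.36, adjusted p = 0.011). At 0 h no filter gave 0.46 (edgeR adjusted p = 0.015), and with only the MKO groups the LPS change was called (-0.37, adjusted p = 0.043). Without the 0 h pair Zfp36l2 was higher in MKO by 0.99 at 0 h (edgeR adjusted p = 1.5e-11) and by 0.39 at 3 h (adjusted p = 6.2e-07), LPS lowered it in MKO cells (-0.48, adjusted p = 2.5e-07), and the interaction was -0.61 (adjusted p = 3.2e-06). In WT cells without the pair the LPS change was 0.13 (adjusted p = 0.060), the other sign than with it. Malat1, given above, moved between the same 0 h libraries, and its part in these values was not tested.

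Levels of different genes can be set side by side only per transcript length, as the deposited TPM values. The 3 family members summed to 1611, 1676 and 1858 TPM in MKO 3 h, 2509, 2439 and 2486 TPM in WT 3 h, 599.5, 621 and 489.8 TPM in MKO 0 h and 388, 380.2 and 599.5 TPM in WT 0 h. Zfp36 made up 74.5% ± 0.58 of that sum in MKO 3 h and 80.9% ± 0.76 in WT 3 h (SD, n = 3 each), and 36.5% ± 3.8 in MKO 0 h and 40.2% ± 7.7 in WT 0 h. Zfp36l2 made up 11.1% ± 0.27 in MKO 3 h and 4.70% ± 0.39 in WT 3 h, while its share was 43.9% ± 3.8 in MKO 0 h and 35.4% ± 7.7 in WT 0 h. Zfp36l1 made up 14.4% ± 0.48 in MKO 3 h and 14.4% ± 0.43 in WT 3 h, while it held 19.6% ± 0.35 in MKO 0 h and 24.4% ± 0.41 in WT 0 h. In replicates 1 and 2 of 0 h the Zfp36 share was 34.4% and 34.2% in MKO and 45.6% and 43.6% in WT. The family was divided among all 3 genes at 0 h and made up mostly of Zfp36 at 3 h, and at 3 h the Zfp36l2 shares of the MKO libraries did not overlap those of the WT libraries. These shares were not tested.

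**Figure D2:**
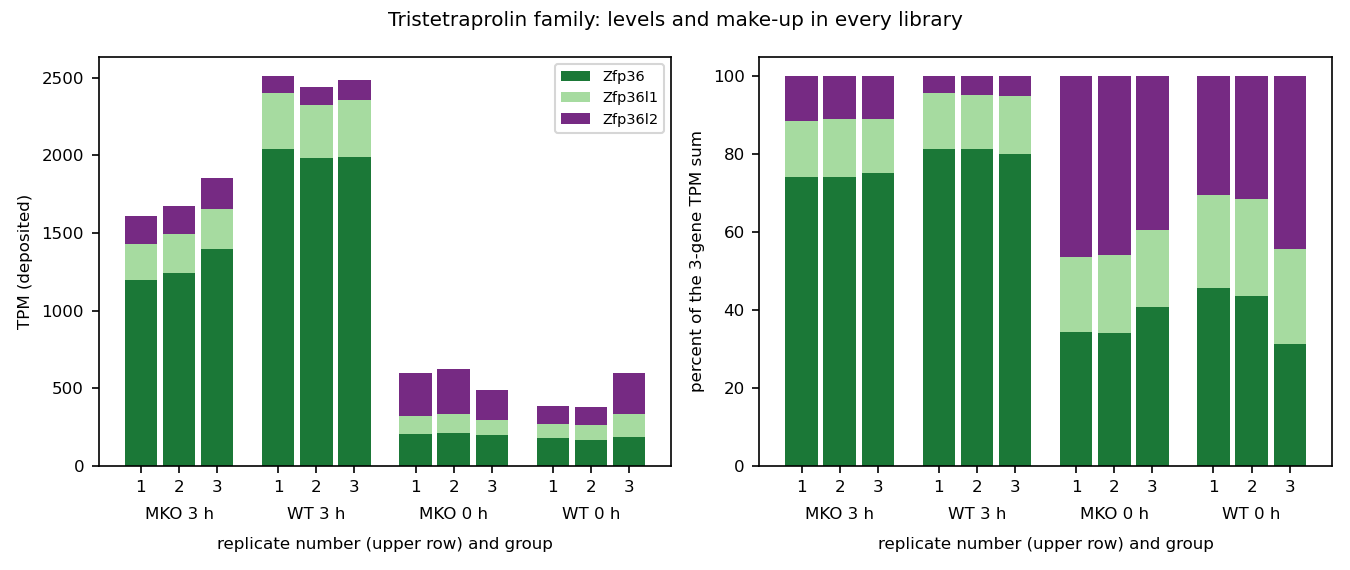
Level and make-up of the tristetraprolin family in every library, as deposited TPM stacked by gene (left) and as percent of the sum of the 3 genes (right), with replicates 1 to 3 of MKO 3 h, WT 3 h, MKO 0 h and WT 0 h from left to right. The sum lies between 1611 and 1858 TPM in MKO 3 h and between 2439 and 2509 TPM in WT 3 h, and the Zfp36l2 share of replicate 3 at 0 h is 39.5% in MKO and 44.3% in WT, against 46.4% and 45.9% in the other MKO and 30.4% and 31.5% in the other WT libraries.

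The promoters of Zfp36 and Zfp36l1, the genes whose LPS response differed between genotypes, are shown for the 150 bases before the RefSeq start (GRCm38.p6), with motif matches in capitals. In Zfp36 the match is a CArG box, the serum response factor motif, 58 bases before the start. It was found in 1.63% of 32851 promoter windows of 300 bases (250 before and 50 after the start, both strands). In Zfp36l1 the matches are the AP-1 motif TGANTCA 129 bases before the start (7.81% of windows) and the TATA box letters TATAAA 29 bases before it (13.6%). The NF-kB motif, found in 8.46% of windows, matched in neither gene and in 1 of the 2 Zc3h12c windows, and the motif TGACGTCA (1.79%) matched in none of the 7 members with an entry. The AP-1 motif also matched in Rc3h1, 133 bases before the start, a gene whose interaction was not called. Zfp36l2 had no entry.
Zfp36, chr7:28379229-28379378, minus strand: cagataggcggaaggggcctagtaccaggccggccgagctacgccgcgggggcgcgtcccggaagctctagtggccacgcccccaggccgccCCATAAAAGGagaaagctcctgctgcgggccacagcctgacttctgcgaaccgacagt
Zfp36l1, chr12:80113014-80113163, minus strand: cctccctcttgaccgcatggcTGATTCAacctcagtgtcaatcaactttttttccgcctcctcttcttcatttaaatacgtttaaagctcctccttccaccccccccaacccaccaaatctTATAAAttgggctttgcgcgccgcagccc

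Both Regnases rose with LPS in both genotypes. Zc3h12a, the Regnase-1 gene, lies on chromosome 4, minus strand, 125118423 to 125127840, with 6 exons. Its level was 159.9, 160.01 and 169.6 CPM in MKO 3 h, 194, 199.5 and 191 CPM in WT 3 h, 33.5, 35.5 and 33.4 CPM in MKO 0 h and 31.2, 30.4 and 38.9 CPM in WT 0 h. LPS raised it by 2.26 in MKO cells (SE 0.083, edgeR adjusted p = 3.5e-11) and by 2.54 in WT cells (SE 0.084, adjusted p = 4.5e-12). The interaction was -0.28 (95% interval -0.53 to -0.04, adjusted p = 0.19) and was not called, and without the 0 h pair it was -0.42 (adjusted p = 0.00034).

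At 3 h Zc3h12a was lower in MKO by -0.26 (SE 0.077, edgeR adjusted p = 0.015), and the groups did not overlap in CPM. This call depended on the scaling and on single libraries. With library size alone the difference was -0.0051 (adjusted p = 0.96), and the call was lost without WT 3 h replicate 2 (-0.24), MKO 3 h replicate 1 (-0.24) or MKO 3 h replicate 2 (-0.22). In deposited TPM the order turned round, with 166.4, 165 and 178 TPM in MKO 3 h and 161, 166.1 and 159 TPM in WT 3 h, and the groups overlapped.

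Zc3h12c encodes Regnase-3, which is expressed in macrophages. It lies on chromosome 9, minus strand, 52111985 to 52168111. Its level was 163, 159 and 156 CPM in MKO 3 h and 306, 300.1 and 315 CPM in WT 3 h, and 24.6, 27.7 and 13.3 CPM in MKO 0 h and 22.3, 23.5 and 27.3 CPM in WT 0 h. The 3 h groups lay well apart and the 0 h groups overlapped, with MKO 0 h replicate 3 the lowest library of all. LPS raised Zc3h12c by 2.87 in MKO cells (SE 0.18, edgeR adjusted p = 1.8e-08, 7.29-fold) and by 3.65 in WT cells (SE 0.18, adjusted p = 5.8e-10, 12.6-fold). At 3 h it was lower in MKO by -0.95 (SE 0.16, adjusted p = 0.00029), 0.519 of the WT level.

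The interaction of Zc3h12c was -0.79 (95% interval -1.31 to -0.27, edgeR adjusted p = 0.072) and was not called. It was called over all 12 libraries with no filter on low counts (-0.77, adjusted p = 0.0039), and also without MKO 0 h replicate 3 (-1.04), without WT 0 h replicate 3 (-0.88) and without both (-1.14, adjusted p = 1.5e-09). Regnase-1 mRNA was the larger part of the pair per transcript length, and less so in WT 3 h: Zc3h12a made up 68.5% ± 1.2 of the summed TPM in MKO 3 h and 57.4% ± 1.2 in WT 3 h (SD, n = 3 each), and 77.3% ± 6.1 in MKO 0 h and 74.5% ± 1.0 in WT 0 h. The sums were 246, 242.5 and 254 TPM in MKO 3 h and 281, 284 and 283 TPM in WT 3 h.

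Changes of the Roquins were small beside those of Zfp36 and the Regnases. Rc3h1, the Roquin-1 gene, lies on chromosome 1, plus strand, 160906418 to 160974978, with 20 exons. Its level was 84.8, 87.0 and 82.7 CPM in MKO 3 h, 81.1, 78.2 and 84.3 CPM in WT 3 h, 66.1, 67.3 and 46.6 CPM in MKO 0 h and 53.3, 56.0 and 65.1 CPM in WT 0 h. LPS raised it by 0.50 in MKO cells (SE 0.11, edgeR adjusted p = 0.0076) and by 0.48 in WT cells (SE 0.12, adjusted p = 0.0048). With library size alone the rise in WT cells was not called (0.26, adjusted p = 0.10), and with replicates 1 and 2 summed neither was. Genotypes differed by 0.06 at 3 h (95% interval -0.18 to 0.31) and by 0.04 at 0 h (95% interval -0.20 to 0.29), and neither passed the test. The 3 h difference of Rc3h1 was called with library size alone (0.31, adjusted p = 0.047), and in deposited TPM the 3 h groups did not overlap. Without the 0 h pair the 0 h difference was called, at 0.29 (edgeR adjusted p = 0.00030).

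Rc3h2, the Roquin-2 gene, lies on chromosome 2, minus strand, 37370069 to 37422903, with 20 exons. Its level was 56.4, 56.9 and 55.3 CPM in MKO 3 h, 43.1, 47.8 and 43.9 CPM in WT 3 h, 50.9, 48.8 and 37.1 CPM in MKO 0 h and 38.1, 38.4 and 49.7 CPM in WT 0 h. All 3 MKO 3 h libraries were above every library of the other groups. Rc3h2 was the only one of the 8 genes called higher in MKO at 3 h, by 0.32 (SE 0.12, edgeR adjusted p = 0.038). That call was lost without any single library of MKO 3 h or WT 3 h (0.29 to 0.37), with the replicate number as a block (adjusted p = 0.066) and with replicates 1 and 2 summed (adjusted p = 0.15). LPS changed Rc3h2 by 0.30 in MKO cells (95% interval 0.06 to 0.55, adjusted p = 0.095) and by 0.09 in WT cells (95% interval -0.16 to 0.35, adjusted p = 0.60). Both LPS changes of Rc3h2 were called without the 0 h pair, at 0.17 in MKO cells (edgeR adjusted p = 0.035) and 0.23 in WT cells (adjusted p = 0.0045). At 0 h the difference was 0.11 (adjusted p = 0.50), and 0.38 without the 0 h pair (adjusted p = 5.4e-05).

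Elavl1, the HuR gene, stayed between 51.4 and 72.2 CPM in all 12 libraries. It lies on chromosome 8, minus strand, 4285382 to 4325413, with 6 exons. Its level was 72.2, 66.4 and 69.8 CPM in MKO 3 h, 63.6, 61.9 and 68.3 CPM in WT 3 h, 56.8, 55.0 and 52.1 CPM in MKO 0 h and 52.6, 51.4 and 56.0 CPM in WT 0 h. LPS raised it by 0.35 in MKO cells (SE 0.065, edgeR adjusted p = 0.0017) and by 0.28 in WT cells (SE 0.065, adjusted p = 0.0043). With library size alone the value in WT cells was 0.05 (adjusted p = 0.57). Genotypes differed by 0.10 at 3 h (95% interval -0.03 to 0.24, adjusted p = 0.21) and by 0.03 at 0 h (95% interval -0.11 to 0.17), and in CPM the libraries of the genotypes overlapped at both times. At 3 h Elavl1 was called higher in MKO with library size alone (0.36, adjusted p = 0.00077) and with only the 3 h groups (0.13, adjusted p = 0.038). In deposited TPM it was at 35.9, 32.8 and 34.9 in MKO 3 h and 25.2, 24.6 and 27.3 in WT 3 h, without overlap.

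Set against this protective factor per transcript length, the destabilising families moved by different amounts. The tristetraprolin family sum was 49.7 ± 4.3 times the Elavl1 level in MKO 3 h and 96.6 ± 4.7 times in WT 3 h, and 20.3 ± 0.71 times in MKO 0 h and 18.3 ± 3.1 times in WT 0 h (ratios of TPM, SD, n = 3 each). The Regnase sum, of Zc3h12a and Zc3h12c without Zc3h12d, was 7.18 ± 0.28 times Elavl1 in MKO 3 h and 11 ± 0.58 times in WT 3 h. At 0 h this sum was 1.7 ± 0.13 times Elavl1 in MKO and 1.76 ± 0.15 times in WT. The Roquin sum stayed close to the Elavl1 level, at 1.06 ± 0.061 times in MKO 3 h, 1.02 ± 0.040 in WT 3 h, 1.0 ± 0.15 in MKO 0 h and 0.977 ± 0.084 in WT 0 h. The higher Elavl1 TPM in MKO 3 h enters these ratios: the tristetraprolin family sum itself averaged 1715 TPM in MKO 3 h and 2478 TPM in WT 3 h. In replicates 1 and 2 of 0 h that family was at 19.96 and 21.2 times Elavl1 in MKO and 16.5 and 16.7 times in WT, and the Regnases at 1.66 and 1.85 times in MKO and 1.66 and 1.69 times in WT. mRNA ratios say nothing of protein amounts, and these ratios were not tested.

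**Figure D3:**
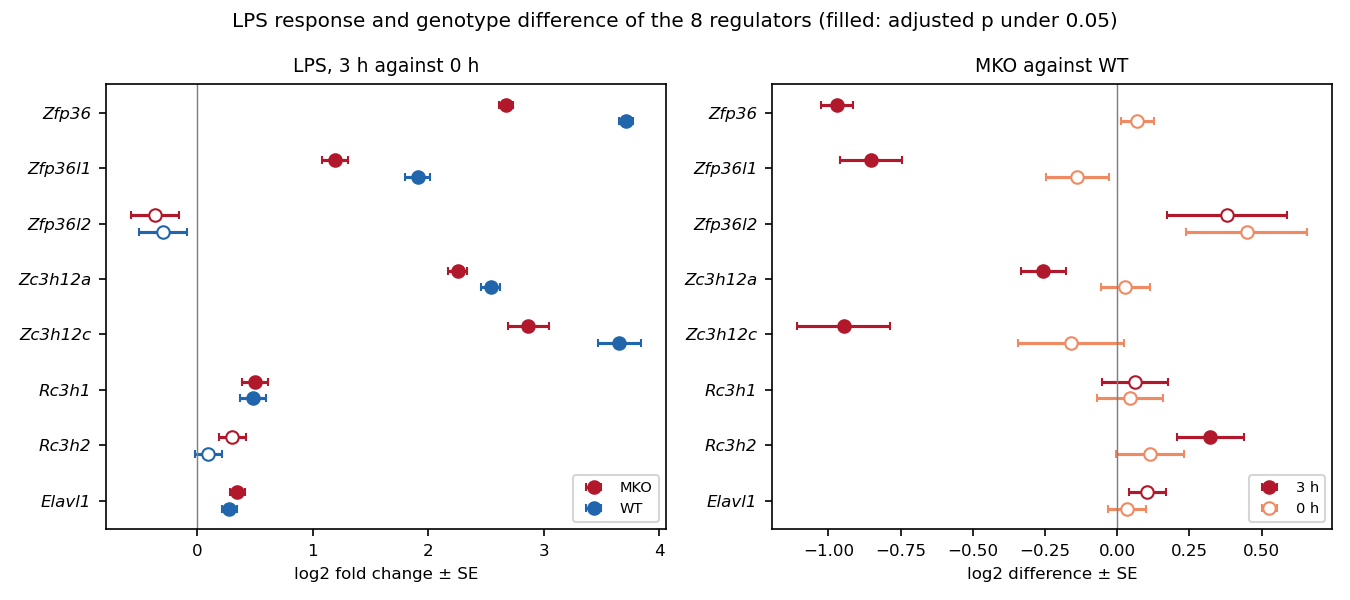
Log2 fold change with LPS (left, MKO and WT) and log2 difference MKO minus WT (right, 3 h and 0 h) of the 8 regulators, with bars for the SE and filled markers for an edgeR adjusted p under 0.05. Zfp36, Zfp36l1 and Zc3h12c lie between -0.97 and -0.85 at 3 h, and at 0 h no marker is filled.

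**Figure D4:**
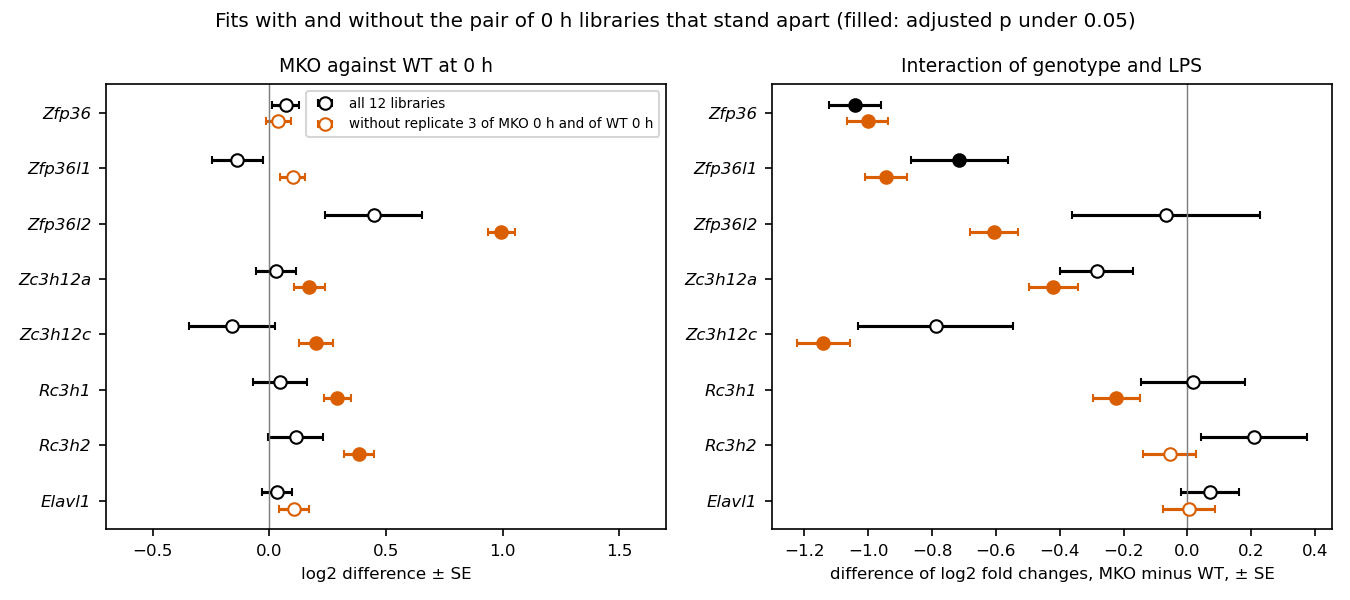
Log2 difference MKO minus WT at 0 h and interaction of genotype and LPS for the 8 regulators, over all 12 libraries and without replicate 3 of MKO 0 h and of WT 0 h, with bars for the SE and filled markers for an edgeR adjusted p under 0.05. At 0 h Zfp36l2 lies at 0.99 without the pair and at 0.45 with all libraries, and the interaction of Zc3h12c lies at -1.14 without the pair and at -0.79 with all libraries.

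Taking out the 0 h pair altered which regulators were called. Without it LPS was called for 8 of the 8 genes in MKO cells (1 of them, Zfp36l2, lower) and for 7 in WT cells, genotype for 6 at 3 h and 5 at 0 h, and the interaction for 6. The 5 called at 0 h were all higher in MKO: Zfp36l2, Zc3h12a (0.17), Zc3h12c (0.20), Rc3h1 and Rc3h2. All 6 called interactions were negative, and they were those of Zfp36, Zfp36l1, Zfp36l2, Zc3h12a, Zc3h12c and Rc3h1 (-0.22, adjusted p = 0.036). Of all genes 20.8% were then called with LPS in MKO cells and 46.5% with LPS in WT cells. Between genotypes 56% were called at 3 h and 48% at 0 h, and 20.2% for the interaction. The 2 libraries left in each 0 h group are replicates 1 and 2, which differed least in every group. In these, Malat1 was at 201 and 121 CPM in MKO and 31.7 and 29.9 in WT. Xist, another nuclear RNA, was at 1174 and 1238 CPM in MKO and 817 and 765 in WT. In replicate 3, MKO was below WT for both (Malat1 26.3 and 164 CPM, Xist 602 and 1234). Neat1, also nuclear, was at 282, 275 and 325 CPM in MKO 0 h and 256, 269 and 295 in WT 0 h. The part of these RNAs in the calls was not tested. The lower levels of Zfp36, Zfp36l1 and Zc3h12c in MKO at 3 h were called under each of 21 alternatives, with ranges of -1.03 to -0.72, -0.88 to -0.60 and -0.97 to -0.70, and not with a 2-fold minimum.

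Overlapping genes on the other strand hold few counts. The use of strand in counting is not given in the sources used here, so reads of such pairs cannot be told apart. Gm44710, which overlaps Zfp36, had 1 to 9 counts in a library, Gm26669, which overlaps Zfp36l1, 0 to 13, and Ccl25, which overlaps Elavl1, 22 to 68, beside at least 3517, 1593 and 814 counts of the regulators. AC132455.1, which overlaps Zfp36l2, was not analysed here. The start or end of Zfp36l1 and Zc3h12c in the deposited table differs from that in GENCODE M21.

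For each regulator the genes with the most similar course over the 12 libraries were found by the root mean square difference of centred log2 CPM. The search covered 9173 genes with official-style names whose mean was 5 CPM or more. Names of the Gm, Rik or accession kind were left out. Closest to Zfp36 were Nlrp3, the inflammasome sensor (0.13), Nfkbie, an inhibitor of NF-kB (0.14), and Noct, a circadian phosphatase once described as a deadenylase (0.15). Nlrp3 and Nfkbie were also among the 3 closest to Zc3h12c, after the transcriptional repressor gene Prdm1 (0.24). Closest to Zfp36l1 were Klf6 (0.10), Il17ra and Ccdc71l, and to Zc3h12a Trim13 (0.16), Sowahc and the AP-1 subunit gene Junb. Zfp36l2 was closest to Ctdsp2 (0.10), Asxl1 and Tbkbp1, Rc3h1 to Atxn7 (0.06), Hipk3 and Jmjd1c, Rc3h2 to Kdm4b (0.07), Atg2b and Fam208b, and Elavl1 to the splicing factor gene Srsf6 (0.06), Uso1 and Tom1l2. The points share libraries and scaling, and no test was made.

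The machinery that these proteins recruit was examined as a list of 20 genes of the CCR4-NOT and PAN deadenylases and their adaptors. In it 4 rose and 0 fell with LPS in MKO cells (median 0.12) and 8 rose and 1 fell in WT cells (median 0.14). At 3 h 4 were higher and 4 lower in MKO, at 0 h 7 were higher and 2 lower, and the interaction was positive in 1 and negative in 4. Of all genes tested 15.8% were called with LPS in MKO cells and 32.5% in WT cells. Between genotypes 42.8% were called at 3 h and 32.9% at 0 h, and 6.8% for the interaction. The counts of each list below stand beside the same shares. The genes of the deadenylase list that moved most were adaptors rather than catalytic subunits. Btg2, an antiproliferative protein that binds the deadenylase, averaged 162 CPM in MKO 3 h, 182 in WT 3 h, 44.3 in MKO 0 h and 29.2 in WT 0 h, with a rise of 1.87 in MKO cells (SE 0.065, edgeR adjusted p = 1.9e-11) and of 2.64 in WT cells (SE 0.068, adjusted p = 2.7e-13). Its relative Btg1 rose by 1.18 in MKO cells and 2.07 in WT cells, with an interaction of -0.90 (SE 0.075). Tob1, an adaptor that links the deadenylase to poly(A)-binding protein, was at 24.5 CPM in MKO 0 h and 9.99 in WT 0 h, a difference of 1.29 (SE 0.11, adjusted p = 1.4e-06). It rose with LPS in WT cells by 0.96 (SE 0.12), and in MKO cells the change was 0.0024 (adjusted p = 0.99). With library size alone 6 genes of the list rose and 5 fell with LPS in WT cells, and 10 were higher and 1 lower in MKO at 3 h. Leaving out the 0 h pair, 10 rose and 3 fell with LPS in WT cells, and 8 were higher and 5 lower in MKO at 3 h and 10 and 2 at 0 h.

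Decapping and exosome genes act in the last steps of decay. Of 25 genes 1 rose and 1 fell with LPS in MKO cells, and 2 rose and 2 fell in WT cells. The decapping activator gene Patl1 rose by 0.45 in MKO cells (SE 0.097, edgeR adjusted p = 0.0052) and 0.58 in WT cells (SE 0.097, adjusted p = 0.00029). At 3 h, where 42.8% of all genes were called, 3 of the list were higher and 4 lower in MKO. Among them were the decapping subunit gene Dcp1a at 0.43 (SE 0.09) and the nuclear exosome gene Exosc10 at -0.34 (SE 0.065). At 0 h, where 32.9% of all genes were called, 5 of the list were lower and 0 higher, and no interaction was called. With library size alone 16 fell with LPS in WT cells and 10 were higher and 0 lower in MKO at 3 h, so the direction of this list depended on the scaling. When the 0 h pair was left out, 4 rose and 9 fell with LPS in WT cells, and in MKO 5 were higher and 7 lower at 3 h and 3 higher and 5 lower at 0 h.

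Among 25 other proteins that bind AU-rich or other 3' elements, 21 genes were tested. Of these 4 rose and 1 fell with LPS in MKO cells, and 10 rose and 2 fell in WT cells. N4bp1, an RNA-binding endonuclease related to the Regnases, rose by 0.95 in MKO cells (SE 0.087, edgeR adjusted p = 1.5e-06) and 1.15 in WT cells (SE 0.087, adjusted p = 7.6e-08), and was lower in MKO at 3 h by -0.54 (SE 0.086). Zc3hav1, the zinc-finger antiviral protein gene, was lower in MKO by -0.66 at 3 h (SE 0.06, adjusted p = 9.7e-07) and -0.31 at 0 h. Zc3h12d, the Regnase-4 gene, went its own way: it averaged 67.5 CPM in MKO 3 h, 69.3 in WT 3 h, 70.4 in MKO 0 h and 99.5 in WT 0 h, and fell with LPS in WT cells by 0.52 on the log2 scale (SE 0.071, adjusted p = 4.0e-05), with an interaction of 0.46 (SE 0.1, adjusted p = 0.01). In the whole list 1 gene was higher and 7 lower in MKO at 3 h, and 9 higher and 2 lower with library size alone, with which 4 rose and 3 fell with LPS in WT cells. In the fit without the pair 7 rose with LPS in MKO cells and 14 in WT cells, and 4 were higher and 7 lower in MKO at 3 h.

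A list of 21 genes for kinases, phosphatases and proteases that act on these regulators held 7 that rose and 0 that fell with LPS in MKO cells, and 9 and 1 in WT cells. Dusp1, the phosphatase that switches off p38 and with it the phosphorylation of tristetraprolin, averaged 589.8 CPM in MKO 3 h, 1097 in WT 3 h, 54.4 in MKO 0 h and 46.9 in WT 0 h. Its rise was 3.44 in MKO cells (SE 0.075, edgeR adjusted p = 9.4e-14) and 4.55 in WT cells (SE 0.079, adjusted p = 3.4e-15), with an interaction of -1.11 (SE 0.099, adjusted p = 4.9e-06). Malt1, the protease that cleaves Regnase-1 and the Roquins, averaged 192 CPM in MKO 3 h, 376 in WT 3 h, 40.9 in MKO 0 h and 30.3 in WT 0 h. Its interaction was -1.40 (SE 0.082, adjusted p = 9.0e-08) and its 3 h difference -0.97 (SE 0.055). Its partner Bcl10 rose by 0.67 in MKO cells and 1.10 in WT cells. Mapk14, the p38 alpha gene, was not called in any of the 5 comparisons, with log2 values of -0.11 to 0.05. At 3 h 3 genes of the list were higher and 8 lower in MKO, and 10 higher and 5 lower with library size alone, with which 7 rose and 8 fell with LPS in WT cells. The split at 3 h was 3 higher and 12 lower without the 0 h pair.

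Target mRNAs of these proteins formed the last list, of 33 genes with 32 tested. It includes Zfp36 and Zc3h12a, which act on their own mRNAs, and shares Dusp1 with the list before. Of the 32, 29 rose with LPS in MKO cells and 30 in WT cells, and 0 fell, with medians of 2.54 and 4.86. At 3 h 29 were lower and 0 higher in MKO (median -1.09), and with library size alone 25 were lower and 2 higher. The interaction was negative in 23 and positive in 0 (median -1.08). At 0 h 6 were higher and 7 lower, with library size alone 12 and 6, and without the 0 h pair 10 and 7. Plaur, the urokinase receptor gene, averaged 153 CPM in MKO 3 h, 148 in WT 3 h, 77.9 in MKO 0 h and 27.6 in WT 0 h, with a 0 h difference of 1.49 (SE 0.058, edgeR adjusted p = 5.3e-10) and an interaction of -1.45 (SE 0.079, adjusted p = 6.1e-08). Without the 0 h pair the interaction was negative in 7 deadenylase and adaptor genes, 10 other binding proteins, 8 signalling genes and 25 targets. Plaur was thus near level between genotypes at 3 h, where 29 targets were lower in MKO. Tnf, Il6 and Il12b, named at the start, averaged 1666, 6.84 and 3.56 CPM in MKO 3 h and 3214, 53.0 and 45.2 in WT 3 h. At 0 h they averaged 33.6, 0.337 and 0.721 CPM in MKO and 34.3, 0.307 and 0.707 in WT. The lists were chosen with results of these data known, so their directions are descriptions. Regulators and targets were measured in the same libraries, and these values do not show which of them moved the other.

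**Figure D5:**
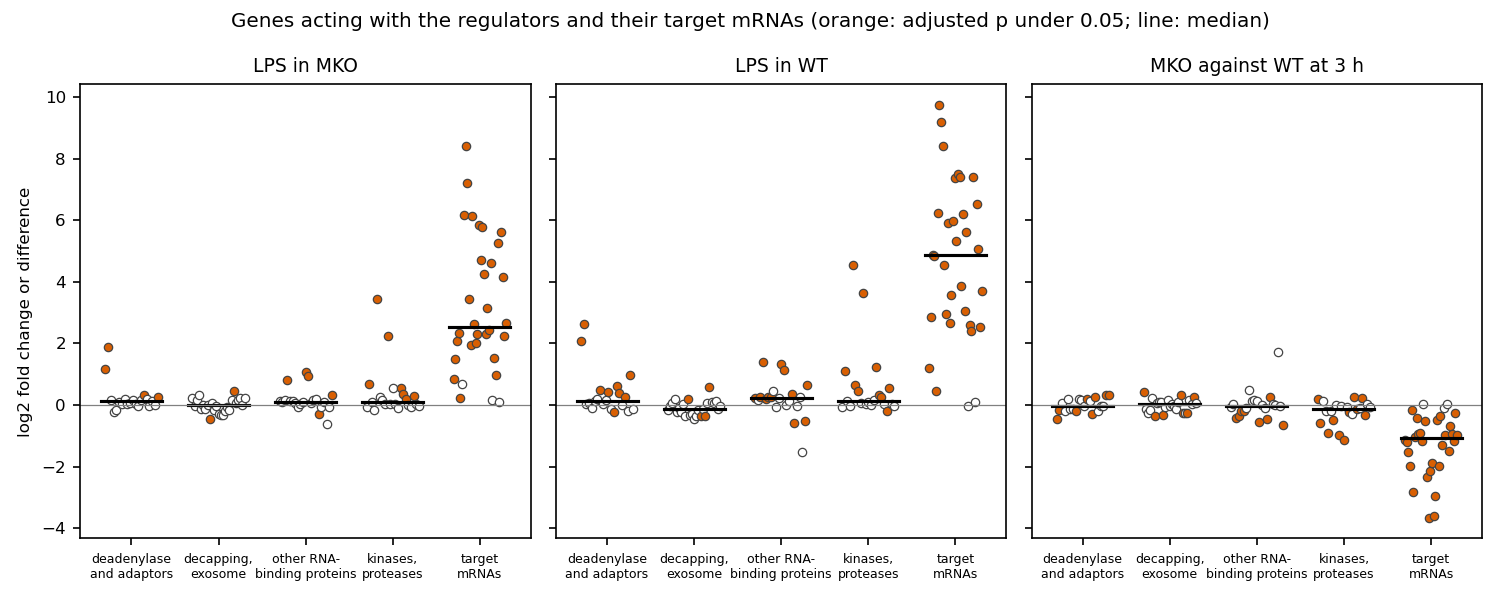
Log2 fold change with LPS in MKO and in WT cells and log2 difference MKO minus WT at 3 h of every tested gene in the 5 lists, with orange points for an edgeR adjusted p under 0.05, open points for genes not called and a line for the median. The target mRNAs have medians of 2.54 with LPS in MKO, 4.86 with LPS in WT and -1.09 at 3 h, and the medians of the other lists lie near 0.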

How the data were processed

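The authors deposited, in 1 table, the read count per gene and library without normalization, beside TPM values, per the file headers. Total RNA was sequenced, per the labels' protocols. The submitters' processing notes name fastp, a read trimmer, and mm10. Aligner, counter, strand setting and annotation: not given in the sources used here. Groups follow the sample titles.

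All 12 libraries entered one edgeR model (version 4.0.16, R 4.3.3) with 4 group means, TMM factors and the filterByExpr filter, and the quasi-likelihood test was applied. Benjamini-Hochberg adjustment ran over 12455 genes. To obtain the SE, the log2 change was divided by the root of F. Intervals are 95%. Depth was 14762709 to 20778862 counts, and a single count equalled 0.0469 to 0.0647 CPM. CPM served within genes, and deposited TPM, untested, between genes. Likeness used a pseudocount of 0.5 CPM. The model was tested on simulated data. It was rerun with DESeq2 1.42.0, with RLE factors or library size only, with other filters, with a 2-fold minimum, with the replicate number as block, on the compared groups alone, with replicates 1 and 2 summed, and with libraries left out. Other pseudocounts were not run, since counts were tested.

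Members and lists were chosen with earlier results of these data known. Named genes are the 8 members, Usp5, per list and comparison at most 3 genes with the smallest p, and per member the 3 closest genes. Malat1, Xist, Neat1, Mapk14, Tnf, Il6, Il12b, and the levels of named genes in other comparisons, were added as context after their values were seen. Sites were searched in the 3' untranslated region of 1 transcript per gene, the principal one with the longest coding sequence, to which exon numbers refer as well.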

Additional observations from a re-analysis of the deposited data

Results flagged for a closer look

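For a pair of regulators the LPS response differed between the genotypes by the test of that difference itself, the interaction in the edgeR model. Zfp36 had an interaction of -1.04, with a rise of 2.67 in MKO cells and 3.71 in WT cells, and all 3 MKO 3 h libraries lay under all 3 WT 3 h libraries. Zfp36l1 had an interaction of -0.71, with a rise of 1.19 in MKO cells and 1.91 in WT cells, and the 3 h libraries likewise did not overlap. Groups of 3 libraries are too small for a test of single libraries that lie apart.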

How the results depend on the processing

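Of 872 values of the regulators under alternatives, 787 kept their direction and side of the threshold, 29 lost the call, 30 gained it and 26 changed sign, none of these called before the change. The cause was not tested for any of them. Members called with LPS numbered 6 in MKO (6 to 8 with each replicate left out in turn) and 6 in WT (6 each time), and no alternative moved either beyond 1.5 times. The 5 called at 3 h became 3 to 6 with a replicate left out, 3 with replicates 1 and 2 summed and 0 with a 2-fold minimum. The 0 called at 0 h became 1 with library size only (Zfp36), 1 with no filter on low counts (Zfp36l2), 0 to 1 with a replicate left out and 5 without the 0 h pair that stands apart. The 2 called interactions became 2 to 5 with a replicate left out, 6 without the pair, 1 with replicates summed and 1 with a 2-fold minimum.

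Signs changed as follows. Without both libraries of the pair the values were 0.13 for Zfp36l2 with LPS in WT, 0.10 for Zfp36l1 and 0.20 for Zc3h12c at 0 h, and -0.22 for Rc3h1 and -0.055 for Rc3h2 for the interaction; those of Zc3h12c and Rc3h1 were called. With library size only they were -0.13 for Rc3h2 with LPS in WT and 0.071 for the Zfp36l2 interaction. With replicates summed they were -0.027 for Zc3h12a, -0.072 for Rc3h1, -0.0085 for Rc3h2 and -2.5e-05 for Elavl1 at 0 h, and 0.15 for the Zfp36l2 interaction. With each replicate left out in turn, Zfp36l2 with LPS in WT ranged from -0.48 to 0.13, and at 0 h Zfp36l1 ranged from -0.23 to 0.049, Zc3h12a from -0.037 to 0.15, Zc3h12c from -0.38 to 0.12 and Rc3h1 from -0.049 to 0.21. The interaction ranged from -0.50 to 0.11 for Zfp36l2 and from -0.13 to 0.11 for Rc3h1. The positive end of Zfp36l2 with LPS and of Zfp36l1 came without WT 0 h replicate 3, and that of Zc3h12c without MKO 0 h replicate 3.

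With the replicate number as a block 6, 6, 4, 0 and 2 members were called (LPS in MKO, LPS in WT, 3 h, 0 h, interaction), and the lost call was Rc3h2 at 3 h. Of 18 pairs of libraries with the same number, 4 had a correlation of deviations over 0.1 (range -0.57 to 0.25). The own number gave the highest correlation in 13 of 36 comparisons. The 0 h pair that stands apart enters these correlations, so they do not settle whether a number marks a shared animal or day.

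Counts over all genes moved by more than 1.5 times with replicates summed (945 of 1971 for LPS in MKO, 2585 of 4042 for LPS in WT, 3434 of 5326 at 3 h, 2156 of 4099 at 0 h, 294 of 847 for the interaction), with a 2-fold minimum (426, 1062, 996, 696 and 248), with library size only for LPS in WT (6417), with only the groups compared at 0 h (2698) and without the pair for the interaction (2535). Library size only moved the median of all genes by -0.09, -0.22, 0.25, 0.12 and 0.13 in the same order, and the split of higher and lower calls to 837 and 1758, 1208 and 5209, 5424 and 1199, 3219 and 1195, and 829 and 382, where it was 1214 and 757, 2219 and 1823, 2463 and 2863, 2055 and 2044, and 298 and 549 with TMM. The lowest level of a regulator in any library was 13.3 CPM, for Zc3h12c, where a single count equals 0.0469 to 0.0647 CPM.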
